A study of Homo sapiens with 4 samples.

Results

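Fulvestrant was compared with its vehicle after 4 h in BT474, an established human line of luminal breast cancer with estrogen receptor and with extra copies of ERBB2, the gene for the receptor kinase HER2. One library held cells given 100 nM fulvestrant and the other cells given DMSO, the vehicle, both grown in serum-containing medium, and both were read by single-cell RNA sequencing from the 3′ end of transcripts (10x Genomics, v3 chemistry). A cell was a barcode with at least 5000 unique molecular identifiers (UMIs, counts of distinct captured transcripts), at least 500 genes and at most 50% of UMIs from mitochondrial genes. That gave 3394 fulvestrant cells and 4240 DMSO cells, 7634 of the 14867 cells of the series. The remaining cells came from 2 libraries of the same line and time, 3800 cells given 100 nM fulvestrant with 200 nM neratinib (an inhibitor of the HER2 kinase family) and 3433 cells given 200 nM neratinib alone. They served here as a second pair of libraries, both drugs against neratinib, in which fulvestrant is again the difference and no library is shared with the first pair.

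The estrogen receptor, encoded by ESR1, is a hormone-activated transcription factor that drives growth of luminal breast cancer cells, in part through MYC and cyclin D1. Fulvestrant binds the receptor, blocks it and leads to its degradation, so the protein can be lost without a change in its messenger RNA. Transcripts differ widely in lifetime, and a change of synthesis shows sooner in the short-lived ones, of which MYC is a known example.

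Each treatment was 1 library, so the spread between cultures is unknown and no difference was tested. UMIs were summed over the cells of a library and divided by the library's total to give CPM, counts per 1000000. Values in square brackets after a log2 ratio are 95% intervals of 2 Poisson counts, and they cover counting error only. In bulk sums of this kind, fewer cells with a transcript and less transcript per cell cannot be told apart. The distribution over cells is given near the end, but for rare transcripts the share of cells with a UMI follows the sum. It then cannot tell them apart either. The fulvestrant cells held 82749213 UMIs and the DMSO cells 101920190, with medians of 23293 and 22699.5 UMIs, 4537.5 and 4492 genes and 16.6% and 16.2% mitochondrial UMIs per cell. The ceiling of 50% had removed 91 fulvestrant barcodes and 61 DMSO barcodes. The 2 libraries had 5 cell barcodes in common, where 2.12 were expected by chance. All 10 BT474 identity genes were present in both libraries, with a summed level of 8071 CPM with fulvestrant and 8315 CPM with DMSO. Of 10 immune markers, 5 were at 0 UMIs with fulvestrant and 6 with DMSO, PTPRC and CD3E among them in both, and the list summed to 1.49 CPM and 1.34 CPM. Fibroblast markers summed to 12.4 CPM with fulvestrant and 11.5 CPM with DMSO, nearly all of it COL1A1, and endothelial markers to 2.95 CPM and 2.61 CPM.

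The response was narrow and, at 2 CPM or more, weighted to lower transcripts. Of 12078 genes with a mean of at least 1 CPM over the 2 libraries, 96.6% had a log2 ratio within 0.32 of 0 in either direction, and the median log2 ratio was 0.00. A gene was called lower or higher where its log2 ratio was at least 0.32 in size and the interval lay off 0. By this size rule 217 genes were lower (1.8% of those measured) and 149 were higher (1.23%), 3.03% in either direction. Counts of called members in every list below are to be read beside these shares. At least 2-fold, 23 genes were lower and 0 were higher. Few of the calls were in abundant genes. Of 1280 genes at 100 CPM or more, 5 were lower and 2 higher, and of 6099 genes at 10 to under 100 CPM, 70 were lower and 14 higher. The higher calls sat mostly among rare transcripts, with 61 of the 149 at 2 to under 10 CPM and 72 at 1 to under 2 CPM. Lists of estrogen receptor targets, sterol synthesis genes and ribosome assembly factors, with 107 measured genes, held 30 of the 217 lower and 9 of the 149 higher genes: 19 of 42 estrogen targets and 11 of 40 assembly factors were lower, and 9 of 25 sterol genes were higher. Of the called genes, 159 lower and 130 higher belonged to none of the 55 lists read here. Estrogen targets described below under other lists are PGR, RARA, IGFBP4, AREG, CISH, CXCL12, TSKU, STC2, MYC, MSX2, MYB, CCND1, SIAH2 and PPM1K. Over all measured genes 14.2% had an interval below 0 and 12.3% one above, whatever the size of the ratio. These shares grew with the level, to 32.2% and 24.1% of genes at 100 CPM or more and 15.8% and 13.2% of those at 10 to under 100 CPM.

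**Figure D1:**
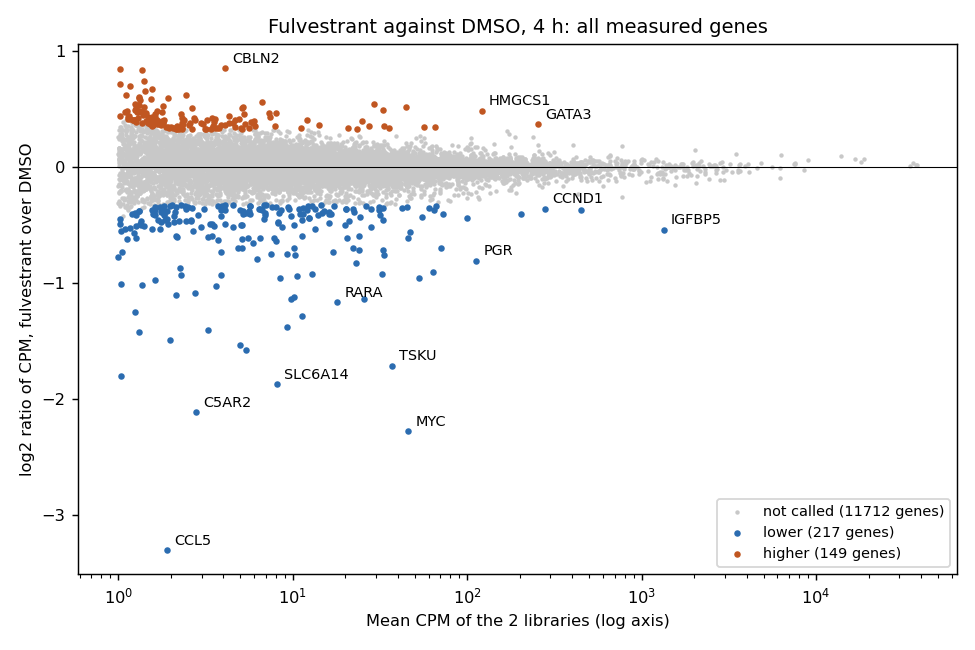
Log2 ratio of CPM, fulvestrant over DMSO, against the mean CPM of the 2 libraries on a log axis, 1 point per measured gene. Lower genes (217) are blue, higher genes (149) orange and the others grey; the points of MYC, TSKU, SLC6A14 and C5AR2 lie far below the grey band, and CBLN2 has the highest ratio.

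Nuclear receptors were represented by 27 measured genes, of which 2 were lower, 0 were higher and the list median was -0.02. Both of the lower genes encode ligand-activated transcription factors. PGR, the progesterone receptor, had 81.9 CPM with fulvestrant and 143 CPM with DMSO, a log2 ratio of -0.81 [-0.85, -0.77]. RARA, the retinoic acid receptor alpha, had 11.1 CPM with fulvestrant, against 25 CPM with DMSO (-1.17 [-1.28, -1.06]). ESR1 was under the size rule, at 12 CPM with fulvestrant and 14.6 CPM with DMSO, a log2 ratio of -0.29 [-0.40, -0.17]. None of the 7 measured genes of retinoic acid response and metabolism was called, and their median was 0.07. Of the 7, 2 had an interval below 0 and 2 above, beside 14.2% and 12.3% of all measured genes. Those below were RARRES1, from 949 fulvestrant and 1356 DMSO UMIs, and RARRES3 (-0.23), whose ratio turned on a single DMSO cell, as given below. CRABP2, a carrier of retinoic acid in the cytoplasm, was above at 0.15. Of 27 coactivators and corepressors none was called either; NRIP1, a corepressor, was nearest at 20.1 CPM with fulvestrant, against 25.1 CPM with DMSO (-0.31 [-0.40, -0.23]).

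The promoters of PGR and RARA are shown because these receptor genes were the lower members of that list, and that of SIAH2, a lower ubiquitin ligase gene, because it holds the E-box without a response element arm, from 250 bases before to 50 bases after the RefSeq start site on GRCh38.p14. Capitals mark GGTCA or TGACC, either arm of the palindromic estrogen response element, and CACGTG, the E-box bound by MYC and its partners.
PGR, chr11:101129028-101129327, minus strand: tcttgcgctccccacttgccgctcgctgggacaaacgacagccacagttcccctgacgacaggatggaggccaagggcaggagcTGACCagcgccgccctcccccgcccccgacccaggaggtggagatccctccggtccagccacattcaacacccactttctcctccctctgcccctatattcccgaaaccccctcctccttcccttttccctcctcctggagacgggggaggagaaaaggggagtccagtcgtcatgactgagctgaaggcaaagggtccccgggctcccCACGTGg
RARA, chr17:40308930-40309229, plus strand: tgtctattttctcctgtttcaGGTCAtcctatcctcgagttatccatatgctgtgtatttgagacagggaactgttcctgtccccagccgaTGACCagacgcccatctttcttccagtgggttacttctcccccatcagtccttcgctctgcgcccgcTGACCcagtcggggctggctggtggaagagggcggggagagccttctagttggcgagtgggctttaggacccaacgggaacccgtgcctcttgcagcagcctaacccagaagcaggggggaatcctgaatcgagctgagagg
SIAH2, chr3:150763120-150763419, minus strand: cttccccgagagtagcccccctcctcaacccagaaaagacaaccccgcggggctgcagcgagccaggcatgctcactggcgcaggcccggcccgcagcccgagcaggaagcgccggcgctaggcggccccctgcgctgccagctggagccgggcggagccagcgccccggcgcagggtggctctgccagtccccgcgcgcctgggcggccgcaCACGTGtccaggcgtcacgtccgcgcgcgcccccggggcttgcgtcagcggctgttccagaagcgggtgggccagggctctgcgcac
In these windows RARA held 3 response element arms and 0 E-boxes, PGR held 1 response element arm and 1 E-box, and SIAH2 held 0 response element arms and 1 E-box. The promoters of TSKU, CISH and IGFBP5 held 0 of either. Both strands were searched. Single arms occur in 37.7% of the 27305 genes' promoters in the RefSeq table and CACGTG in 7.43%, while the full element, both arms 3 bases apart, is in 18 of them (0.0659%). A promoter was found for 158 of the 217 lower genes (72.8%), too few for a comparison of the lower genes as a set. Many estrogen receptor sites are known to lie far from promoters, outside such windows.

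The lower genes of growth factor signalling encode ligands, receptors, binding proteins and an adaptor. Of 20 measured insulin and IGF genes, 4 were lower and 0 higher (median -0.03), beside 1.8% and 1.23% of all measured genes. IGFBP5, a secreted protein that binds insulin-like growth factors and the most abundant of all lower genes, had 1088 CPM with fulvestrant and 1586 CPM with DMSO, a log2 ratio of -0.54 [-0.55, -0.53]. IGFBP4, of the same family, had 52.8 CPM with fulvestrant, against 67.6 CPM with DMSO (-0.36 [-0.41, -0.30]). The receptor gene IGF1R had 16.2 CPM with fulvestrant and 24.8 CPM with DMSO, a log2 ratio of -0.61 [-0.71, -0.52]. PIK3R1, the regulatory subunit of PI3 kinase that these receptors recruit, had 17.8 CPM with fulvestrant, against 22.8 CPM with DMSO (-0.36 [-0.46, -0.27]). In the second pair all 4 had negative ratios, with IGF1R at -0.40, PIK3R1 at -0.65, IGFBP4 at -0.48 and IGFBP5 at -0.31.

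Among 10 measured genes of the EGFR family and its ligands, the ligands AREG and BTC were lower and 0 genes were higher (median -0.03). AREG, amphiregulin, had 35.9 CPM with fulvestrant and 69.5 CPM with DMSO, a log2 ratio of -0.96 [-1.02, -0.89]. BTC, betacellulin, was rare, at 1.89 CPM with fulvestrant, against 2.39 CPM with DMSO (-0.34 [-0.64, -0.05]). No receptor was called. ERBB2 was at 1016 CPM with fulvestrant and 973 CPM with DMSO, a log2 ratio of 0.06 [0.05, 0.08], and EGFR and ERBB3 were at 0.05 and 0.03. ERBB4 was under the size rule at 0.26, from 429 and 441 UMIs, with an interval above 0. GFRA1, the co-receptor through which GDNF engages the kinase RET, had 4.60 CPM with fulvestrant, against 7.24 CPM with DMSO (-0.65 [-0.84, -0.47]), and was the lower one of 17 measured receptor kinases and partners. EPHA4, an ephrin receptor, was the higher one, at 6.82 CPM with fulvestrant and 5.18 CPM with DMSO, a log2 ratio of 0.40 [0.22, 0.57].

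Cytokine signalling held 2 called genes of opposite direction that belong to 1 family of feedback inhibitors. CISH, which is induced by STAT5 and restrains prolactin and related receptors, had 5.17 CPM with fulvestrant, against 13.4 CPM with DMSO (-1.38 [-1.54, -1.22]). SOCS1, which inhibits JAK kinases, had 5.97 CPM with fulvestrant and 4.21 CPM with DMSO, a log2 ratio of 0.50 [0.31, 0.69]. SOCS2, another of that family, was under the size rule at 0.27, from 825 fulvestrant and 844 DMSO UMIs. In the second pair CISH was at -2.03 and SOCS1 at 0.37. CXCL12, the ligand of the chemokine receptor CXCR4, had 1.10 CPM with fulvestrant, against 2.16 CPM with DMSO (-0.97 [-1.34, -0.61]), and IL1R1, the interleukin-1 receptor, had 5.61 CPM with fulvestrant and 4.43 CPM with DMSO, a log2 ratio of 0.34 [0.15, 0.53]. The list of 22 measured genes thus held 2 lower and 2 higher, with a median of -0.01.

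Several cell surface and secreted proteins outside these pathways were lower, with TSKU and STC2 also on the estrogen target list. C5AR2, a receptor for complement fragment C5a, had 1.05 CPM with fulvestrant, against 4.55 CPM with DMSO (-2.11 [-2.46, -1.78]), from 87 and 464 UMIs. TNFSF15, a TNF family ligand, had 2.40 CPM with fulvestrant and 4.90 CPM with DMSO, a log2 ratio of -1.03 [-1.27, -0.79]. SLC6A14, a transporter of neutral and basic amino acids, had 3.49 CPM with fulvestrant, against 12.8 CPM with DMSO (-1.87 [-2.06, -1.68]). It was 1 of 2 lower genes among 18 measured amino acid transporters (0 higher, median -0.05); SLC7A5, the light chain of the main leucine transporter, was under the size rule at -0.31. TSKU, a secreted leucine-rich proteoglycan known to modulate BMP and WNT signals, had 17.4 CPM with fulvestrant and 56.8 CPM with DMSO, a log2 ratio of -1.71 [-1.80, -1.63]. It was the only lower gene in the TGF-beta and BMP list (28 measured, 0 higher, median 0.01) and in the WNT list (24 measured, 1 higher, median 0.03). BAMBI, a decoy receptor for TGF-beta, was at 0.26, under the size rule, and the WNT receptor FZD8 was the higher gene at 0.36. STC2, the secreted glycoprotein stanniocalcin 2, had 8.89 CPM with fulvestrant, against 16.8 CPM with DMSO (-0.92 [-1.05, -0.79]), and MUCL1, a small mucin of breast epithelium, had 391 CPM with fulvestrant and 506 CPM with DMSO, a log2 ratio of -0.37 [-0.39, -0.35]. SLC22A5, the carnitine transporter, and SLC19A2, a thiamine transporter, were at -0.61 and -0.41.

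**Figure D2:**
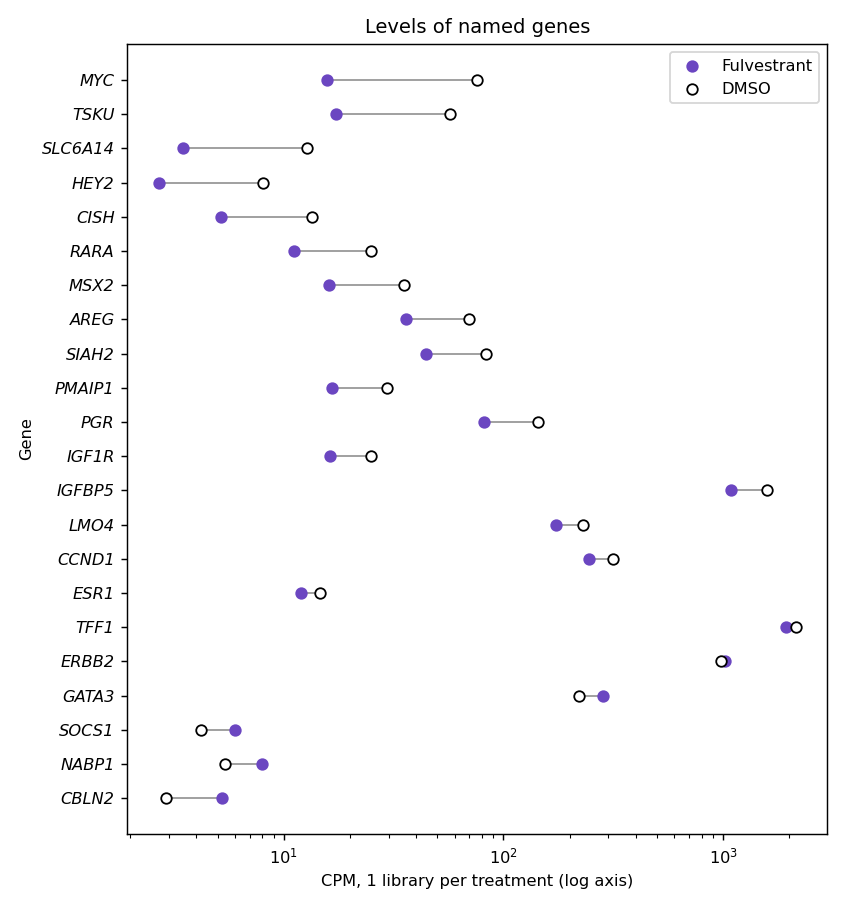
CPM of 22 named genes in the fulvestrant library (filled) and the DMSO library (open), 1 library per treatment, on a log axis. The fulvestrant point lies left of the DMSO point from MYC down to TFF1, almost on top of it for ERBB2 (1016 and 973 CPM) and right of it for GATA3, SOCS1, NABP1 and CBLN2.

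Transcription factors were called in both directions. MYC, which drives growth and ribosome production, had 15.7 CPM with fulvestrant, against 75.9 CPM with DMSO (-2.28 [-2.36, -2.19]), 4.84-fold lower and the lowest ratio by the naming rule. Its relatives MYCN and MYCL were higher, on far fewer counts. MYCN had 1.75 CPM with fulvestrant and 1.05 CPM with DMSO, a log2 ratio of 0.74 [0.37, 1.11], from 145 and 107 UMIs, and MYCL had 4.87 CPM with fulvestrant, against 3.74 CPM with DMSO (0.38 [0.18, 0.59]). In the second pair MYC was at -3.36, while MYCN was at -0.14 and MYCL at 0.02. The other 10 measured genes of the MYC, MAX and MXD network were not called, and the list median was 0.02.

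HEY2, a repressor that Notch signalling induces, had 2.71 CPM with fulvestrant and 8.07 CPM with DMSO, a log2 ratio of -1.58 [-1.79, -1.36]. It was the only called gene among 16 measured Notch pathway genes, where 0 were higher and the median was 0.00. Of these 16, 3 had an interval below 0 and 2 above, beside 14.2% and 12.3% of all measured genes. MSX2, a homeobox gene, had 16.1 CPM with fulvestrant, against 35.3 CPM with DMSO (-1.14 [-1.23, -1.04]), and HOXB6, another, had 6.04 CPM with fulvestrant and 4.42 CPM with DMSO, a log2 ratio of 0.45 [0.27, 0.64]; the remaining 23 of 25 measured homeobox and developmental genes were not called. Of 21 luminal lineage factors, MYB and ZNF703 were lower and GATA3 was higher (median 0.06). ZNF703, a repressor gene amplified in some luminal tumours, had 24.8 CPM with fulvestrant, against 42.0 CPM with DMSO (-0.76 [-0.84, -0.68]), and MYB had 10.6 CPM with fulvestrant and 13.7 CPM with DMSO, a log2 ratio of -0.37 [-0.50, -0.25]. GATA3, a factor that maintains luminal identity, had 285 CPM with fulvestrant, against 221 CPM with DMSO (0.37 [0.34, 0.39]). It was 1 of the 2 abundant genes called higher, but in the second pair its ratio was 0.08. LMO4, a LIM-only adaptor of transcription complexes, had 174 CPM with fulvestrant and 231 CPM with DMSO, a log2 ratio of -0.41 [-0.44, -0.38]. FOSL2, an AP-1 subunit, was the only one called among 26 immediate early genes, at -0.33, while that list's median was 0.06.

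Of the genes that control entry into the cell cycle, CCND1, the cyclin that starts it in G1, had 246 CPM with fulvestrant, against 315 CPM with DMSO (-0.36 [-0.39, -0.33]), and E2F5, a repressor of the E2F family, had 5.75 CPM with fulvestrant and 7.87 CPM with DMSO, a log2 ratio of -0.45 [-0.62, -0.29]. These were the 2 lower genes of 28 in the cyclin D, CDK and RB list, with 0 higher and a median of 0.03. Of 49 S phase genes none was called, 24 had an interval above 0 and 1 below, beside 12.3% and 14.2% of all measured genes, and the median was 0.06. Of 54 genes of G2 and mitosis none was called, 29 had an interval below 0 and 2 above (14.2% and 12.3% of all measured genes), and the median was -0.06. CDC6, which licenses replication origins, was at 0.27, and PLK1, a mitotic kinase, at -0.21. In the second pair these list medians were 0.07 and -0.13. The shares over all measured genes grow with the level, to 32.2% below 0 and 24.1% above at 100 CPM or more. No comparison matched for level was made.

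Other regulators among the lowest genes act on ubiquitin, phosphate groups, Cdc42 and cell death. SIAH2, a ubiquitin ligase, had 44.4 CPM with fulvestrant, against 83.1 CPM with DMSO (-0.90 [-0.96, -0.85]), and was the only called gene of 26 ligases and adaptors. PPM1K, the mitochondrial phosphatase that activates breakdown of branched-chain amino acids, had 6.56 CPM with fulvestrant and 16 CPM with DMSO, a log2 ratio of -1.29 [-1.43, -1.15], while the other 14 measured genes of that list were not called. FGD3, an activator of Cdc42, had 1.80 CPM with fulvestrant, against 4.76 CPM with DMSO (-1.40 [-1.68, -1.13]). PMAIP1, which encodes the BCL2-family killer protein NOXA, had 16.6 CPM with fulvestrant and 29.4 CPM with DMSO, a log2 ratio of -0.82 [-0.92, -0.73], and the other 24 measured genes of the BCL2 and apoptosis list were not called. BMF, another killer protein of that family, was at 0.32.

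Among the higher genes, CBLN2, a secreted synapse organiser in the brain, had the greatest ratio, at 5.26 CPM with fulvestrant, against 2.91 CPM with DMSO (0.85 [0.64, 1.07]). NABP1, a single-stranded DNA binding protein, had 7.98 CPM with fulvestrant and 5.41 CPM with DMSO, a log2 ratio of 0.56 [0.40, 0.73]. SLITRK6, a membrane protein with leucine-rich repeats, had 38.6 CPM with fulvestrant, against 27.5 CPM with DMSO (0.49 [0.42, 0.56]). ARRDC3, an arrestin-domain protein that promotes receptor turnover, had 12.4 CPM with fulvestrant and 9.88 CPM with DMSO, a log2 ratio of 0.33 [0.21, 0.46]. DDIT4, an inhibitor of mTORC1, had 26.1 CPM with fulvestrant, against 20.8 CPM with DMSO (0.32 [0.24, 0.41]), and was higher where STC2 was lower among 19 measured ATF4 stress genes. CYP1A1, which oxidises xenobiotics and estrogens, had 15.9 CPM with fulvestrant and 12.4 CPM with DMSO, a log2 ratio of 0.36 [0.25, 0.48]. It was the only called gene among 12 that are known to be held down by estrogen, of which 8 had an interval above 0 and 0 below, beside 12.3% and 14.2% of all measured genes (median 0.14). The calls of DDIT4 and CYP1A1, both near the size rule, were lost when the UMIs of all barcodes were used. FOXO and quiescence genes had 0 calls in 25, with 13 intervals above 0 and 1 below, read against the same shares, and a median of 0.12. In the second pair the 12 genes held down by estrogen had a median of 0.01, with 2 lower and 1 higher. The FOXO list had a median of 0.02 there, with 1 lower and 3 higher.

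Lists with 0 members called in either direction covered 20 aminoacyl-tRNA synthetases (median -0.04), 22 unfolded protein response genes (0.05), 22 heat shock chaperones (-0.01), 15 keratins and luminal surface proteins (-0.03), 31 genes of glycolysis and hypoxia (-0.04), 22 of fatty acid synthesis (0.08), 27 of the mitochondrial ribosome and import (-0.05), 30 of junctions and adhesion (0.04), 16 circadian clock genes (0.01), 34 of autophagy and lysosome (0.02) and 26 of the BRD8, TIP60 and BET list (0.02). Of all measured genes 3.03% were called in either direction, so 0 calls in lists of this size lies near that share. Within the mitochondrial ribosome list 18 intervals lay below 0 and 2 above, and within fatty acid synthesis 13 lay above and 1 below. Over all measured genes 14.2% lay below and 12.3% above, and among genes at 100 CPM or more 32.2% and 24.1%. BRD8, a bromodomain subunit of the TIP60 complex named in the series title, had 22.4 CPM with fulvestrant, against 23.3 CPM with DMSO (-0.06 [-0.15, 0.03]). Of 31 nucleotide, polyamine and one-carbon enzymes linked to MYC, PPAT, the first enzyme of purine synthesis, and ADSL, a later one, were lower at -0.36 and -0.33, with 0 higher and a median of -0.06. Several further lists held 1 or 2 lower genes and 0 higher, beside 1.8% lower and 1.23% higher of all measured genes. For lists of 20 to 30 genes such counts lie near those shares. AEN (-0.37), a nuclease, was 1 of 23 p53 targets (median 0.05), and RAD50 (-0.34), a subunit of the break-sensing MRN complex, 1 of 29 recombination and Fanconi genes (median 0.00). HIST1H3B (-0.47) and HIST2H2AC (-0.44) were 2 of 25 histone genes (median 0.01), a family whose near-identical copies can share reads, and ABCC2 (-0.41), an export pump, and SLC7A11 (-0.39) 2 of 17 NRF2 targets (median 0.00). KLF16 (-0.37) and ZNF703 were 2 of 21 zinc finger and ETS factors (median 0.04), and FN1 (-0.39), fibronectin, was 1 of 3 measured basal and mesenchymal markers. Of these genes, AEN and ZNF703 were also lower in the second pair, at -0.42 and -1.16. XBP1, a factor of the unfolded protein response, was under the size rule at -0.24, and lower in the second pair at -0.43.

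**Figure D3:**
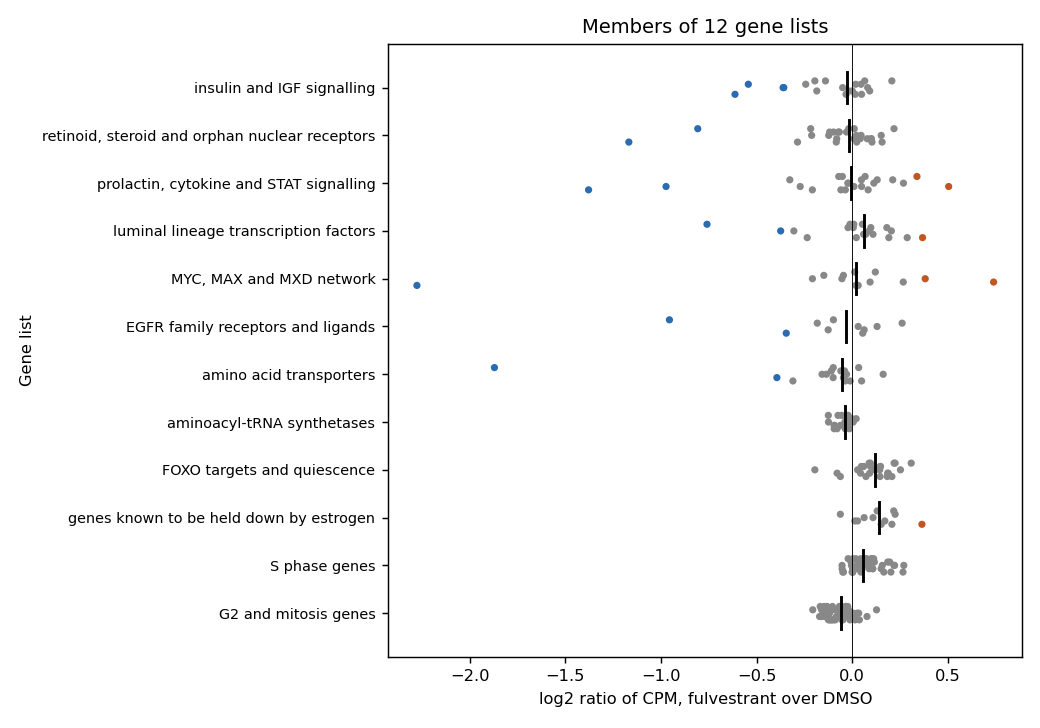
Log2 ratio of CPM, fulvestrant over DMSO, for the measured members of 12 gene lists, 1 point per gene; blue points are lower, orange points higher, grey points not called, and the black bar is the list median. In the lists with calls, single members stand far from a body of genes close to 0, while the S phase and G2 and mitosis lists lie as narrow bands on either side of 0.

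Noncoding transcripts made up 31 of the 217 lower and 24 of the 149 higher genes, when every annotated class other than protein coding is counted. Of 846 such genes 3.66% were lower and 2.84% higher, beside 1.66% and 1.10% of 11227 protein-coding genes; their median level was 2.61 CPM, that of protein-coding genes 17.0 CPM, and neither the difference nor the part of level in it was tested. PVT1, a long noncoding RNA downstream of MYC, had 6.92 CPM with fulvestrant and 11.6 CPM with DMSO, a log2 ratio of -0.75 [-0.90, -0.60]. SNHG15, a host transcript of a small nucleolar RNA, had 36.4 CPM with fulvestrant, against 55.6 CPM with DMSO (-0.61 [-0.68, -0.55]). These and SNHG19 (-0.39) were the lower members of 14 measured host genes and nuclear RNAs, with 0 higher and a median of -0.06; the other 13 of its 27 members are not analysed here.

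Some lower genes were neighbours on the chromosome. Of the 217 lower genes, 30 had another lower gene within 100000 bases in the GENCODE 29 annotation. This was 13.8% of them, and 4.59% of 12073 measured genes had a lower gene in that window; the difference was not tested. Those genes had a median log2 ratio of -0.01. ISG15, RNF223 and AL645608.3 are among the 30 only through ISG15, whose call was lost without a single DMSO cell, as given below. The genes named in the rest of this paragraph were picked for their position after their values were seen. SUSD3 (-0.74), FGD3 (-1.40) and CARD19 (-0.36) lie within the window of one another, and so do ARMT1 (-0.40), RMND1 (-0.35) and ZBTB2 (-0.33) on chromosome 6, where ARMT1 lies 186590 bases from ESR1. ITPKC (-0.64) has EGLN2 (-1.80) and NUMBL (-0.62) in its window, with other genes between it and EGLN2. EGLN2 rests on 38 fulvestrant and 163 DMSO UMIs. RARA has both IGFBP4 (-0.36) and CDC6 (0.27) within the window, so neighbours did not always share a direction. AP003119.2 (-1.49) overlaps TSKU, and AC007563.2 (-0.59) overlaps IGFBP5, each from the opposite strand. Whether reads were counted by strand was not found in the labels or file headers, so the values of these overlapping genes may not be separate. C1orf226 (-0.93) and NOS1AP (-0.79), also among the 30, overlap on the same strand, and their values may not be separate either.

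The second pair, both drugs against neratinib, gave 243 lower genes (2.01%) and 178 higher genes (1.47%) by the same rule among the same 12078 genes. Of the 217 genes lower with fulvestrant alone, 93 were lower there too (42.9% of the first list, 38.3% of the second), and 186 had a negative ratio. Of the 149 higher genes, 23 were higher there too (15.4% of the first list, 12.9% of the second), and 106 had a positive ratio. The 217 lower genes had a median of -0.46 in the first pair, in which they were chosen, and of -0.30 in the second. The 149 higher genes had medians of 0.40 and 0.14. The size in the second pair was greater than in the first for 54 lower and 13 higher genes. By list, 23 estrogen targets were lower in the second pair, with medians of -0.28 in the first pair and -0.39 in the second. Only 1 ribosome assembly factor was lower there, against 11 in the first pair, with medians of -0.24 and -0.04. Of the sterol genes, 7 were higher there, against 9 in the first pair, with medians of 0.25 and 0.19. MYC stood at 5.93 CPM with both drugs and 60.8 CPM with neratinib (-3.36), and TSKU at 7.53 CPM and 46.1 CPM (-2.61). PMAIP1 (-1.26), ZNF703 (-1.16) and MSX2 (-1.32) were likewise further from 0 than in the first pair, while SLC6A14 (-0.99), BRINP2 (-0.82) and FGD3 (-0.82) were nearer. The neratinib libraries differed from the first pair in mitochondrial share. Of cells given both drugs 61.5% were over 20% mitochondrial UMIs, and of neratinib cells 61.6%, against 15.3% of fulvestrant cells and 13.4% of DMSO cells. Both libraries with the higher share were given neratinib. The part of this share in the differences between pairs was not tested.

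**Figure D4:**
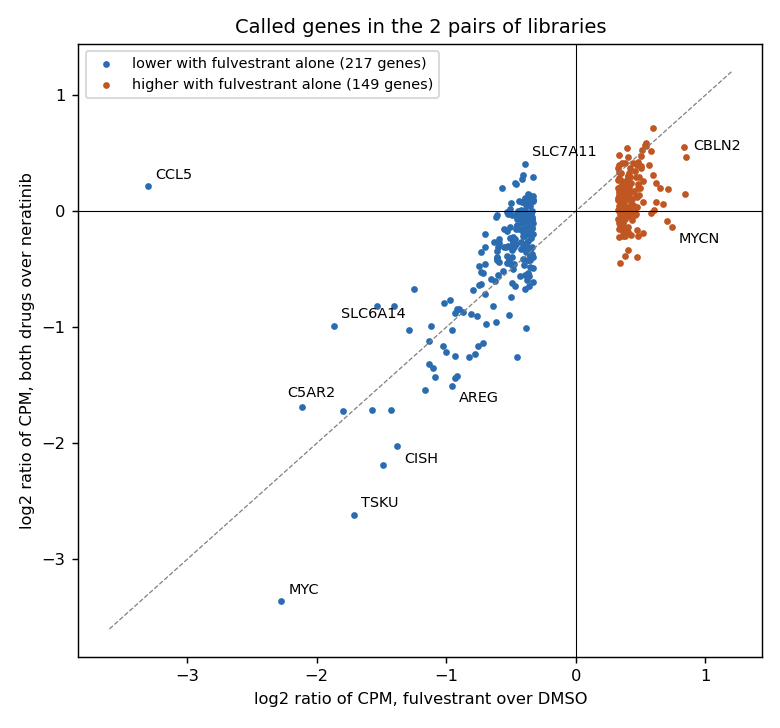
Log2 ratio of both drugs over neratinib against that of fulvestrant over DMSO, for the 217 lower (blue) and 149 higher (orange) genes of the first pair; the dashed line marks equal ratios. MYC, TSKU and CISH lie below the line, CCL5 lies alone at the left with a ratio of 0.22 in the second pair, and 106 of the 149 higher genes lie above 0 on the vertical axis.

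The lower sums came with fewer cells in which a transcript was seen. For shares, each cell was thinned to 5000 UMIs, so that depth was equal. MYC was then seen in 7.25% [6.40, 8.17] of fulvestrant cells and 30.4% [29.1, 31.9] of DMSO cells, and without thinning in 27.0% and 69.7%. TSKU was seen in 7.87% [6.98, 8.82] of fulvestrant cells and 22.6% [21.3, 23.9] of DMSO cells, and PGR in 29.5% [28.0, 31.1] and 43.4% [41.9, 45]. The square brackets here are exact Clopper-Pearson 95% intervals. For MYC, TSKU and PGR few UMIs are expected in a thinned cell, so less transcript in every cell also lowers the share seen. These shares therefore cannot tell fewer cells with the transcript from less transcript per cell. Among the cells with a UMI the mean number also differed, at 1.07 UMIs with fulvestrant and 1.28 with DMSO for MYC, and 1.36 and 1.70 for PGR. IGFBP5 was seen in most cells of both libraries, 92.6% with fulvestrant and 95% with DMSO, at means of 6.05 and 8.79 UMIs. GATA3 was seen in 69.9% [68.3, 71.5] of fulvestrant cells and 62.3% [60.9, 63.8] of DMSO cells. CBLN2, the highest gene, was in few cells of either library, with intervals of 1.82% to 2.86% of fulvestrant cells and 0.938% to 1.63% of DMSO cells. The libraries hold no second cell type in which the share from free RNA could be read. The barcodes outside the called cells gave MYC at 17.3 CPM with fulvestrant and 68.6 CPM with DMSO, close to the levels in cells.

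**Figure D5:**
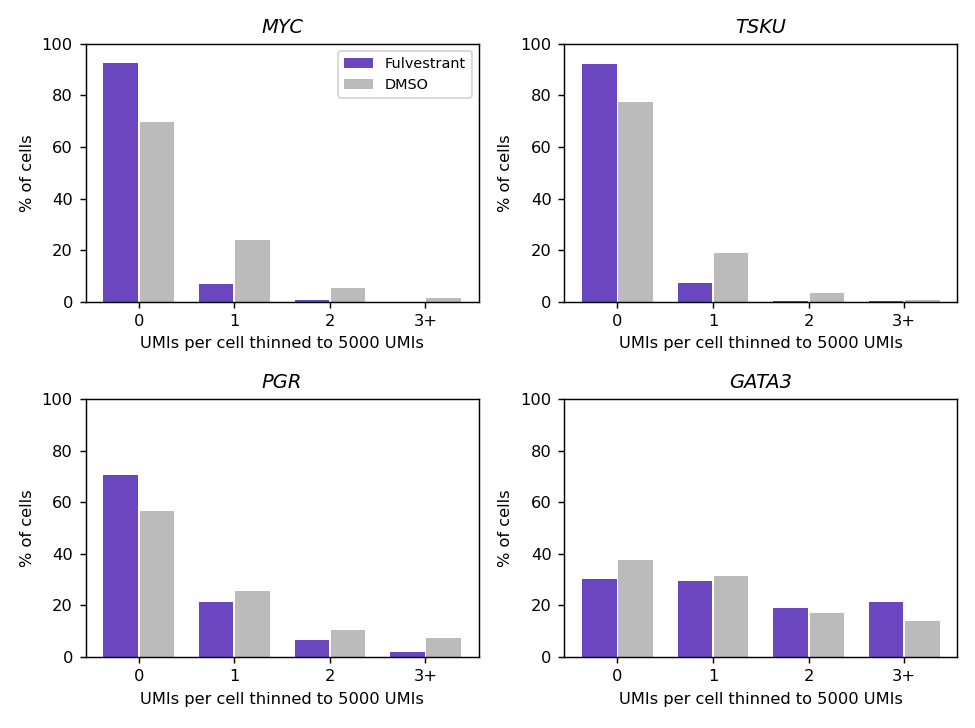
Percent of cells with 0, 1, 2 or at least 3 UMIs of MYC, TSKU, PGR and GATA3 after thinning each cell to 5000 UMIs; fulvestrant cells (purple, left bar, 3394) beside DMSO cells (grey, right bar, 4240). For MYC, TSKU and PGR the fulvestrant bar is taller at 0 and shorter from 1 UMI on, and for GATA3 it is shorter at 0 and taller from 2 UMIs on.

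The differences were present in each phase of the cell cycle. Phases were called from a score on the S phase and the G2 and mitosis lists, which cuts a continuous range; 54.2% of fulvestrant cells and 52.9% of DMSO cells lay within 0.05 of a boundary. G1 held 52.6% of fulvestrant cells and 52.9% of DMSO cells, S 20.9% [19.6, 22.3] and 18.9% [17.7, 20.1], and G2M 26.5% [25, 28.0] and 28.3% [26.9, 29.6]. MYC was at -2.19 in G1, -2.05 in S and -2.63 in G2M cells. PGR was at -0.99 in G1, -0.73 in S and -0.61 in G2M, and RARA at -0.92, -1.44 and -1.43. Of the 217 lower genes, 213, 212 and 215 had a negative ratio in G1, S and G2M, and of the 149 higher genes 148, 139 and 142 had a positive one; the cells of each phase are part of the sums that chose these genes, so this describes their make-up and is no second measurement.

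A single cell decided some of the calls. CCL5, a chemokine, had the lowest ratio of all measured genes at -3.30. It had 0.35 CPM with fulvestrant and 3.45 CPM with DMSO, a mean under the 2 CPM at which the naming rule starts. Of its 352 UMIs in DMSO cells, 321 (91.2%) came from 1 cell. Without that cell the log2 ratio was 0.20 [-0.58, 0.98], from 29 fulvestrant and 31 DMSO UMIs. The same cell held 26.1% of the DMSO UMIs of ISG15, an interferon-induced gene called lower at -0.52, and without it ISG15 was at -0.09 [-0.30, 0.13]. ISG15 was the only called gene among 23 interferon response genes, so that list had 0 lower without the cell. RARRES3, with 20.4% of its DMSO UMIs there, was at -0.23 with the cell and at 0.10 [-0.12, 0.32] without it. The cell held 30200 UMIs, with 132 of KRT8, 37 of ERBB2 and 0 of PTPRC, CD3E and NKG7.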

How the data were processed

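The deposited matrix gives UMI counts, not normalized, for 33538 genes and every barcode. Cell Ranger 3.1.0 and hg19 are named in the submitters' processing notes. GENCODE 29 (GRCh38) held 33456 of the gene identifiers and was used for gene classes and neighbours, so distances hold for that annotation only. Per the labels' protocols, 3000 cells per sample at 60000 reads per cell were targeted. Each library was matched to its sample by the number that ends the barcode and starts the sample title, a mapping that no other label states. Barcodes were filtered as in the report; doublets were neither called nor removed. UMIs were summed per library and divided by the library's total; log2 ratios have exact conditional binomial intervals. Thinning, phase scores (scanpy 1.11.5, Python 3.11.15) and TMM factors (edgeR 4.0.16, used for scaling only) followed. The calculation was run on simulated Poisson counts, the model that the intervals assume. That run does not cover UMIs clumped in single cells, as for CCL5. No statistical test was made.

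Named genes, without mitochondrial and ribosomal protein genes, are those with an interval off 0 among the 15 lowest and 15 highest of each of 3 tiers of mean CPM (100 or more, 10 to under 100, 2 to under 10) with the same sign in the second pair, up to 4 members per list by size, and 12 genes always named; 245 in all, of which the text prints a part. Genes described by position, the single-cell genes and the promoters printed were chosen after values were seen. Members, lists and rules were chosen with earlier results of these data known. Alternatives changed the cell filter, the scaling, the weight of cells, the gene filter and the fold.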

Additional observations from a re-analysis of the deposited data

Results flagged for a closer look

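In 2 genes the calls had opposite directions in the 2 pairs. The difference was not tested, since every group is 1 library. SLC7A11, the cystine transporter, was at -0.39 with fulvestrant against DMSO (89 and 144 UMIs) and at 0.41 with both drugs against neratinib (200 and 137 UMIs). AC124016.2, a noncoding gene, was at 0.34 with fulvestrant against DMSO (174 and 169 UMIs) and at -0.44 with both drugs against neratinib (84 and 104 UMIs).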

How the results depend on the processing

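The main counts, 217 lower and 149 higher, were within 1.5 times under 7 alternatives (cell filters, all barcodes, 3 other scalings, equal weight per cell), at 214 to 247 lower and 131 to 175 higher; 191 to 217 of the lower and 113 to 149 of the higher genes were the same genes. No filter on low genes gave 374 lower and 315 higher, a mean of at least 10 CPM gave 75 and 16, and a fold of at least 1.5 gave 68 and 13. The other scalings moved the ratios by -0.00 to 0.01. Leaving out the DMSO cell with most CCL5, an alternative chosen after seeing the data, gave 217 lower and 150 higher. Within single phases, HIST1H3B was at 1.30 in G1 (8 fulvestrant and 4 DMSO UMIs) and SNHG19 at 0.016 in S, both lower in the main values; the cause was not tested. Of 1022 measured genes in the 47 lists other than the estrogen, sterol, ribosome and marker lists, 51 were called, 14 of which are also in those first lists, beside 3.03% of all measured genes; 50 to 54 were called under the alternatives. Calls near the size rule, or with an interval that ends near 0, were lost in some: SLC7A11 with a ceiling of 20% on mitochondrial UMIs, without mitochondrial and ribosomal protein genes in the total and with equal weight per cell; DDIT4 with all barcodes, median-of-ratios scaling and equal weight; CYP1A1 with all barcodes; FOSL2 with at least 10000 UMIs per cell; FZD8 with the 20% ceiling. The FOXO and junction lists, with 0 called, each had 1 higher gene under 2 alternatives. Without thinning, all 490 shares of cells with a UMI lay outside their intervals, and none of the 6 phase shares did. No paired analysis was possible because each group is 1 library. Calls at 1 to 2 CPM rest on about 100 UMIs per library, and 1 library a side leaves variation between cultures unmeasured.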
